A study of Homo sapiens with 12 samples.

Results

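HCT116 is an established human colorectal cancer cell line, and CKAP2L is the gene of a spindle-associated protein. The comparison described here is that of 3 mRNA libraries from HCT116 cells with a CKAP2L overexpression construct against 3 from HCT116 cells with the vector. They are the 6 HCT116 libraries of the 12 in the series, chosen by title, and the comparison was made over all genes. Of 20263 deposited genes, 2146 were at 0 in every HCT116 library, 5385 were above 0 but below the filter, and 12732 had a mean TPM of at least 1 and were tested. TPM is a transcript's share of all transcripts in a library after division by its length, on a fixed total. The filter fell in a well-filled range of levels, with 125 genes at a mean of 0.9 to 1 TPM and 116 at 1 to 1.1 TPM. The series also holds 3 libraries of RKO, another colorectal cancer line, with a short hairpin against CKAP2L (shCKAP2L) and 3 with a negative control (NC). Its title links smoking, CKAP2L, STAT3, AREG and EGFR to the progression of colorectal cancer. The genotype labels of the HCT116 samples read control for the vector libraries and CKAP2L overexpression for the others, and no smoke exposure or other treatment is given. The labels give neither the promoter that drives the construct, nor whether the cells are a pool or a clone, nor how long the construct had been present. Nor is it stated that replicates were grown apart: every p-value reflects the scatter among the libraries in its fit, and that scatter could be purely technical.

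A protein of the spindle acts when duplicated chromosomes are pulled apart, and mRNAs of the mitotic machinery peak shortly before division. AREG and EREG are ligands of the receptor EGFR. A bound receptor signals through the RAS and ERK kinases and through STAT3, a transcription factor that is itself switched on by phosphorylation rather than by more mRNA, so mRNA levels do not measure its activity. Several other programmes that mRNA profiles report well are steered by single families of factors: interferon-stimulated genes by STAT and IRF proteins, amino acid supply genes by ATF4, sterol and fatty acid synthesis by the SREBP factors, and chaperones of the endoplasmic reticulum (ER) by ATF6 and XBP1.

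Epithelial genes were expressed in the 6 libraries, among them KRT8, KRT18, KRT19, EPCAM and CDH1, and the intestinal factor CDX2 averaged 12.6 TPM. Genes of differentiated colonocytes were near 0: VIL1, LGALS4, CEACAM5, CEACAM6, GPA33, CDH17 and CDX1 averaged under 1 TPM and TFF3 was listed at 0. Of markers of other cell types, 2 of 10 for fibroblasts (COL1A1 and ACTA2), 2 of 12 for immune cells (CD8A and CD68), 0 of 8 for endothelium and 3 of 9 for neural cells (SYT1, MAP2 and SYP) passed the filter, while PTPRC, CD3E, COL3A1, DCN and PECAM1 averaged under 1 TPM. The summed level of the fibroblast list was 63.66 to 70.58 TPM with vector and 69.34 to 71.90 with CKAP2L, that of the immune list 33.29 to 38.69 and 31.82 to 34.17, and that of the neural list 36.65 to 39.84 and 45.40 to 49.41, in which SYT1 rose. The part of these markers in the results was not tested. Mitochondrially encoded mRNAs took 25.68% to 26.11% of all TPM with CKAP2L and 28.04% to 28.56% with vector. TPM is a share of a fixed total, so this difference alone moves every other gene. All values below are therefore TPM rescaled by the median of ratios, with scale factors of 0.9656 to 1.033. Genes are not independent replicates, and Pearson's r across them on the log2 scale was 0.9971 to 0.9978 within the groups and 0.9951 to 0.9957 between them. How deeply each library was sequenced cannot be read from TPM.

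The question put by the series' title is whether the mRNAs of CKAP2L, STAT3, AREG and EGFR differ with the CKAP2L level. CKAP2L (ENSG00000169607, GRCh38 chromosome 2, positions 112736607 to 112764677, minus strand) stood at 14.7, 13.1 and 15.1 with vector and 223.7, 226.3 and 216.5 with CKAP2L (rescaled TPM). The groups did not overlap. The mean went from 14.3 ± 1.02 to 222.2 ± 5.06 (SD, n = 3), a ratio of 15.5 and a log2 fold change of 3.87 ± 0.047 (SE; limma, adjusted p = 7.15e-12). Each fold change is a difference of log2(TPM + 1), CKAP2L minus vector, and this was the largest of all 12732. Reads of the construct and of the cell's own gene cannot be told apart in these values.

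AREG (chromosome 4, positions 74445134 to 74455009, plus strand) was at 245.0, 243.1 and 247.1 with vector and 299.5, 307.9 and 300.8 with CKAP2L. All 3 CKAP2L libraries lay above all 3 vector libraries. The mean went from 245.1 ± 2.00 to 302.7 ± 4.53 (SD, n = 3), a log2 fold change of 0.30 ± 0.027 (adjusted p = 7.93e-05). When the spread was estimated over all 12 libraries of the series, AREG no longer passed (adjusted p = 0.0633).

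STAT3 (chromosome 17, positions 42313324 to 42388568, minus strand) was at 91.4, 94.2 and 94.7 with vector and 92.3, 96.7 and 95.4 with CKAP2L, and its groups overlapped. Its log2 fold change was 0.02 ± 0.032 (adjusted p = 0.701). EGFR (chromosome 7, positions 55019021 to 55211628, plus strand) was at 27.7, 27.5 and 28.5 with vector and 27.6, 27.7 and 25.9 with CKAP2L, also with overlap. Its log2 fold change was -0.04 ± 0.041 (adjusted p = 0.508), and 0.01 in the deposited TPM without rescaling. A p that misses the threshold does not show that the levels were equal.

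**Figure D1:**
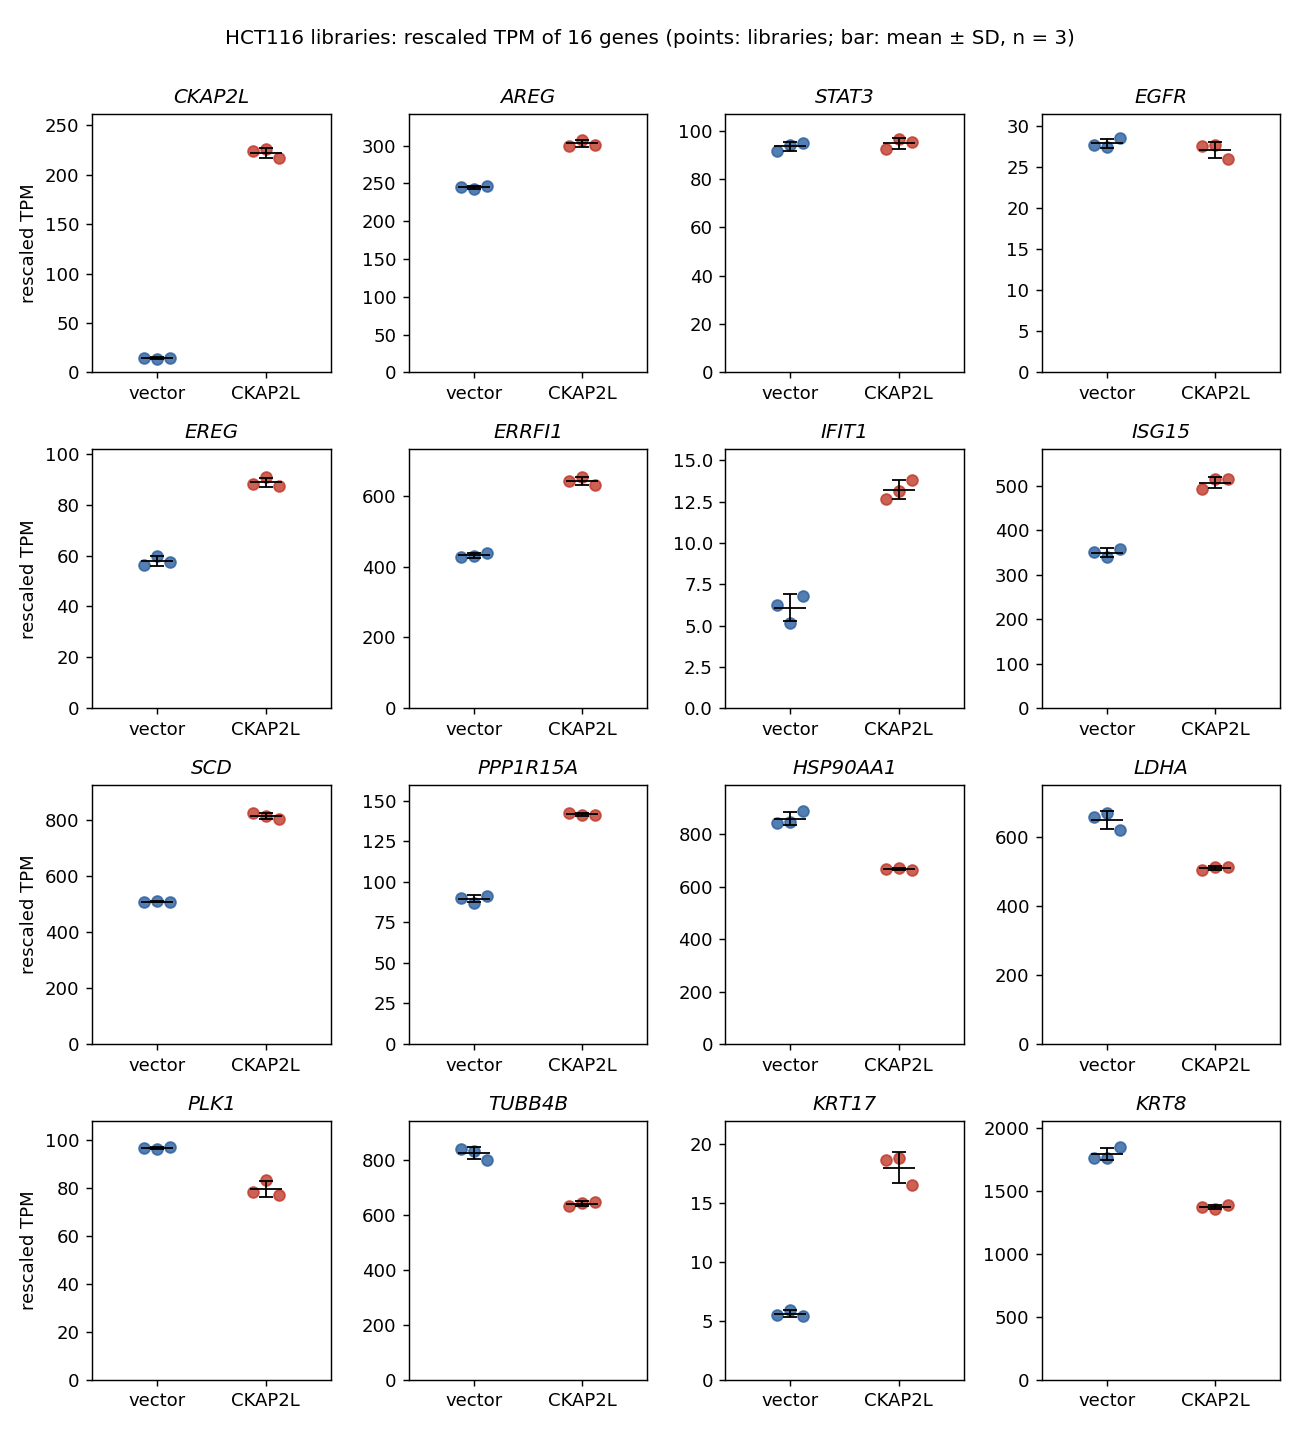
Rescaled TPM (vertical axes from 0) of 16 genes in the 3 vector and 3 CKAP2L libraries of HCT116; points are libraries and bars are means ± SD (n = 3). CKAP2L, AREG, EREG, ERRFI1, IFIT1, ISG15, SCD, PPP1R15A and KRT17 have all CKAP2L points above all vector points, HSP90AA1, LDHA, PLK1, TUBB4B and KRT8 have them all below, and STAT3 and EGFR overlap.

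Of the 12732 genes tested, 1128 (8.86%) were higher and 1188 (9.33%) were lower with CKAP2L at an adjusted p under 0.05 (limma, Benjamini-Hochberg over all tested genes). Every count of list members below is read against these 2 shares. The differences were small for nearly all genes: 93.0% lay within 0.25 of 0 on the log2 scale, and the median size of a passing change was 0.198 against 0.081 for all genes. The replicate spread was small too, with a median residual SD of 0.0613, so that changes down to 0.087 passed. At a log2 difference of at least 0.5, 56 genes were higher (0.44%) and 8 were lower (0.0628%). At a doubling or more, 6 were higher (0.0471%) and 0 were lower. The values of the groups did not overlap for 2354 higher genes (18.5%) and 2326 lower genes (18.3%), 36.8% in all. Leaving out 1 library gave 645 (without CKAP2L replicate 2) to 1148 higher and 640 (without CKAP2L replicate 1) to 1338 (without vector replicate 3) lower genes. In the deposited TPM, where the median of all genes sits 0.054 above 0, the counts were 2082 higher and 543 lower.

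The largest changes by the naming rule were mostly upward. KRT17, a keratin of stressed and basal epithelia, was at 5.46, 5.95 and 5.39 with vector and 18.7, 18.9 and 16.6 with CKAP2L (log2 fold change 1.53 ± 0.064, adjusted p = 7.56e-07). After CKAP2L and KRT17 came the interferon-stimulated genes IFIT3, IFIT2, BST2 and IFIT1. They were followed by the cytokine receptor chain IL20RB (10.5 to 19, mean rescaled TPM), the neutrophil chemokine CXCL1 (17 to 29.1) and the metallothionein MT1E (169.7 to 277.1). IFI27, the iron-carrier-binding lipocalin LCN2 (183.8 to 296.1) and the fatty acid desaturase SCD (507.6 to 813.6) completed the 12. Among abundant mRNAs the architectural chromatin protein gene HMGA1 (6489 to 7233), the ferritin chain FTH1 (3037 to 3460), the stress cytokine GDF15 (1301 to 1778), the metallothionein MT2A (1193 to 1562), the ER chaperone CALR (1207 to 1329) and the early response gene IER3 (1152 to 1361) rose.

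Downward changes were smaller. CYP24A1, which degrades active vitamin D, was at 28.2, 28.8 and 27.4 with vector and 18.7, 19.2 and 18 with CKAP2L (log2 fold change -0.57 ± 0.042, adjusted p = 2.92e-05). The ligand BMP6 (7.79 to 5.07), LRRC73 (6.62 to 4.31), the protease ADAM19 (16.6 to 11.6) and the growth factor carrier IGFBP3 (12.9 to 8.98) fell. So did the centrosome genes CCDC61 (8.43 to 5.81) and LRRC45 (46.2 to 33.7), the ATP synthase subunit ATP5MC1 (222.2 to 160.9), the carboxypeptidase CPA4 (147.3 to 107.0), the mitochondrial carrier SLC25A10 (32 to 23.4) and the olfactory receptor gene OR51I1 (13.3 to 9.45). MT-ND6 (5154 to 3793) was the most abundant of these 12. It is encoded on the opposite mitochondrial strand, and without stranded counting, which is not stated, its reads cannot be told apart from those of the transcripts across from it. The 6 lower genes with the highest mean TPM of all were also mitochondrially encoded, the cytochrome oxidase gene MT-CO2, MT-ND4L, MT-ATP6, MT-ND4, MT-CYB and MT-ND1. Of these, MT-ND4L and MT-ND1 turned to 0.02 and 0.04 after quantile normalization. That scaling gives equal ranks equal values in every library, so it can hide a fall shared by the most abundant mRNAs.

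**Figure D2:**
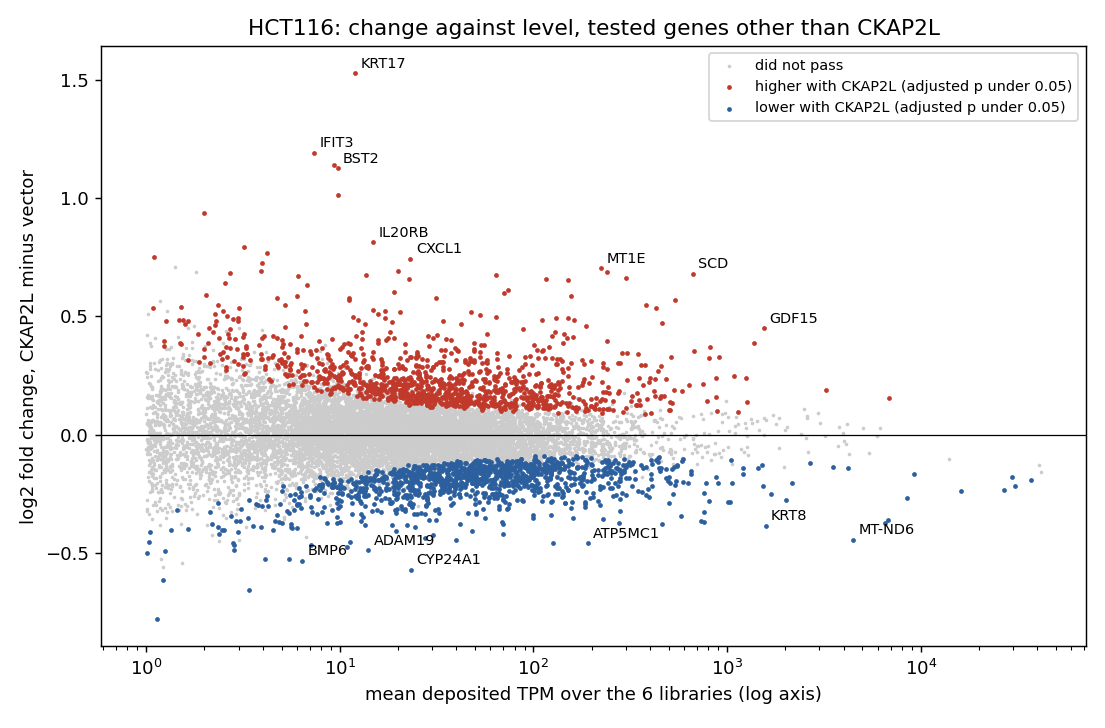
Log2 fold change (CKAP2L minus vector) of the tested genes other than CKAP2L against mean deposited TPM on a log axis; red points are the higher and blue points the lower genes at an adjusted p under 0.05, grey points did not pass. Upward changes reach 1.53 (KRT17) while no gene above 5 TPM fell by more than 0.57 (CYP24A1), and among genes above 1000 TPM blue points outnumber red ones.

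Several ligands of EGFR rose. Of 10 tested EGFR family genes (13 listed) 4 rose and none passed downward, with a median log2 fold change of 0.14 beside 0.001 over all genes. In the fit of all 12 libraries, which held 9 of these genes and not EREG, 2 rose. EREG, the ligand epiregulin and a neighbour of AREG on chromosome 4, was at 56.1, 59.9 and 57.4 with vector and 88.2, 90.8 and 87.5 with CKAP2L (0.61 ± 0.035, adjusted p = 4.12e-06). HBEGF was at 22, 23.2 and 21.2 with vector and 27.7, 26.5 and 27.6 with CKAP2L (0.29 ± 0.045, adjusted p = 0.00193). In both genes the groups did not overlap, and the change of EREG was larger than that of AREG on the log2 scale. TGFA, another ligand, went from 65.8 to 65.4 (-0.01, adjusted p = 0.894). The receptors ERBB2 (0.03) and ERBB3 (0.08) did not pass. ERRFI1, a cytosolic inhibitor of EGFR whose gene answers to EGFR signalling, was at 426.4, 430.0 and 439.5 with vector and 641.9, 653.8 and 631.3 with CKAP2L (0.57 ± 0.028, adjusted p = 1.63e-06).

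Genes that respond quickly to growth factor signalling rose in part. Of 18 immediate early factors 10 rose and 1 fell (median 0.12). Leaving out 1 library gave 7 to 11 higher, with 0 lower without CKAP2L replicate 1, 2 or 3 or vector replicate 1. FOS was at 53.7, 55.5 and 58 with vector and 86, 83.5 and 85.3 with CKAP2L (0.60 ± 0.036), and ATF3 (74.3 to 101.6), MAFF (42.8 to 53.3), FOSB (4.56 to 7.33) and EGR1 (322.3 to 380.0) rose as well. MYC fell from 577.4 to 526.4. Of 21 genes of ERK output 6 rose and 1 fell (median 0.07). The nuclear ERK phosphatase DUSP5 was at 306.0, 307.1 and 308.6 with vector and 438.7, 450.2 and 458.9 with CKAP2L (0.55 ± 0.028), whereas DUSP4, a phosphatase of the same class, went the other way at 172.8, 172.1 and 175.1 with vector and 142.0, 140.0 and 144.8 with CKAP2L (-0.28 ± 0.028, adjusted p = 1.36e-04). PHLDA1, ETV5, DUSP1 and the inhibitor SPRY4 rose, and DUSP6, SPRY2 and CCND1 did not pass (0.02, 0.03 and 0.09).

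Around STAT3 the changes were few. Of 21 tested genes of the pathway (24 listed) 4 rose and none fell (median 0.07), and the count was 1 without CKAP2L replicate 2 and 2 without CKAP2L replicate 1 or 3. The 4 were STAT6 (53.2 to 64.3), a factor of interleukin-4 signalling, the shared receptor chain IL6ST (11.7 to 13.5), the cytokine LIF (96 to 107.2) and the phosphatase PTPN11 (93.6 to 102.2). SOCS3, the classical feedback inhibitor induced by STAT3, went from 35.3 to 32.4 (-0.12, adjusted p = 0.0967). IL6 averaged under 1 TPM and was not tested.

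Interferon-stimulated genes had the highest median log2 fold change of the lists with at least 5 tested members. Of 50 tested members (64 listed) 34 rose and none fell, with a median of 0.31. Antiviral effectors rose in 16 of 22 cases, the ubiquitin-like and PARP enzymes in 8 of 10, the sensors and transcription factors in 8 of 11, and ligands and receptors in 2 of 7. IFIT1, which binds foreign RNA ends, was at 6.28, 5.17 and 6.78 with vector and 12.7, 13.2 and 13.8 with CKAP2L (1.01 ± 0.082, adjusted p = 5.27e-05). Its relatives IFIT2 (5.39 to 13) and IFIT3 (4.06 to 10.5) at least doubled in mean level. BST2, which tethers budding viruses, was at 5.95, 6.35 and 4.83 with vector and 14.7, 13.1 and 12.9 with CKAP2L (1.12 ± 0.087). ISG15, a ubiquitin-like modifier and the most abundant member that passed, was at 351.3, 339.9 and 358.9 with vector and 492.4, 515.1 and 514.6 with CKAP2L (0.53 ± 0.032, adjusted p = 5.56e-06). None of these genes had overlapping groups. Further effectors that rose were IFI44 (4.41 to 7.68), the exonuclease ISG20 (9.46 to 13.8), the membrane protein gene IFI6 (106.9 to 142.2) and EIF2AK2 (14.7 to 18.2), which encodes the RNA-activated kinase PKR. The oligoadenylate synthetases OAS1 (2.80 to 3.82) and OAS3 (31.9 to 42.5) and their relative OASL (log2 fold change 0.49) rose too. Of the enzymes that attach ISG15 or ADP-ribose, HERC5 (15.2 to 20.9), DTX3L (8.60 to 11.3) and PARP14 (9.93 to 12.8) rose, as did USP18 (13.6 to 15.5), which removes ISG15.

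Among the sensors, RIGI (14.8 to 23.1) and IFIH1 (9.94 to 12.8), which detect RNA in the cytosol, and STING1 (35.4 to 45.5) rose. Of the factors IRF7 (30.2 to 39) and IRF1 (15 to 17.6) rose, and STAT2 (54.8 to 58.4) and IRF3 (65.6 to 64.7) did not pass. The type III interferon gene IFNL1 stood at 0.621, 0.258 and 0.806 with vector and 1.45, 1.64 and 1.72 with CKAP2L (0.75 ± 0.14, adjusted p = 0.00571). It met the filter only through its CKAP2L libraries, so its passing is no support for the group. The counts above of the list and of its ligands and receptors include IFNL1. Reads shared with its near-identical copies IFNL2 and IFNL3 may be split between them. IFNB1, IFNL2 and IFNL3 averaged under 1 TPM and were not tested. IFITM3 (646.6 to 681.9), abundant in vector cells already, and MX1 (2.33 to 2.82) did not pass. Genes of class I antigen presentation rose in 7 of 19 cases (median 0.10), among them TAPBP (68.5 to 80.9) and HLA-B (482.0 to 531.3). Their count was 2 without CKAP2L replicate 2, 3 without CKAP2L replicate 3 and 12 in the deposited TPM.

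The promoters of 4 of these genes are shown because interferon-stimulated genes are known for a shared sequence element, the core of the interferon-stimulated response element (ISRE), GAAANNGAAA on either strand. Each is the 250 bases before the RefSeq transcription start in GRCh38.p14, written 5′ to 3′ on the strand of the gene, with the ISRE cores in capitals.
IFIT1, chr10:89392373-89392622, plus strand: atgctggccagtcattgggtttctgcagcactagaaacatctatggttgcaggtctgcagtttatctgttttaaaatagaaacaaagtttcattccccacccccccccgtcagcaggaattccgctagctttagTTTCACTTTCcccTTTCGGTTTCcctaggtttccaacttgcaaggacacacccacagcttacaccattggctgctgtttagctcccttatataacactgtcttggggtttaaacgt
IFIT3, chr10:89327747-89327996, plus strand: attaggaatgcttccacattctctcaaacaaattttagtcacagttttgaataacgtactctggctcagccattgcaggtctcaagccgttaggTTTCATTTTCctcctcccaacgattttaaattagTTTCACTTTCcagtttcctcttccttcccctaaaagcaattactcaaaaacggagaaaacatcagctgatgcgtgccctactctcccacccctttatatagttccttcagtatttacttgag
BST2, chr19:17405631-17405880, minus strand: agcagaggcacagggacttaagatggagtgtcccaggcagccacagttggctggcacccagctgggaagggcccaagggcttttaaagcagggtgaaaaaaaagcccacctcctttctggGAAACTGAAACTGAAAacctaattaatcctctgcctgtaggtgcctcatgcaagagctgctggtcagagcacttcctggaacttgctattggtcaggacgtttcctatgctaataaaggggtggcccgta
ISG15, chr1:1013247-1013496, plus strand: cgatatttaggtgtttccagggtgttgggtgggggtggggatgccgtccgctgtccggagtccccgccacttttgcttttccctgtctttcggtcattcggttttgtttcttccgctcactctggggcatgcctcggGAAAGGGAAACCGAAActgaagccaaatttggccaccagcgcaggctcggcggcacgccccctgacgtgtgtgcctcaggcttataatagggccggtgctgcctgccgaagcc

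Each of the 4 holds 2 cores, in IFIT1 from bases -116 and -103 and in IFIT3 from -156 and -122 (first bases, counted from the start). In BST2 they begin at -130 and -124 and in ISG15 at -113 and -107, and in both genes the 2 matches overlap. The promoter table has an entry for 10245 of the 12731 tested symbols and none for IFIT2, and windows of 300 bases (250 before and 50 after the start) were searched. The core was in 3.65% of all 27305 promoters in the table and in 2.74% of those of tested genes. It was in 49 of 877 promoters of higher genes (5.59%) and in 18 of 946 of lower genes (1.9%). Of the interferon list 25 of 39 tested members with a promoter held it (64.1%), and of its higher members 18 of 26 (69.2%), IFNL1 included in both counts. Some higher members, such as RIGI and OAS1, held none, and some that did not pass, such as IFIT5 and IFITM3, held it. A match is a description of the letters and not of a bound factor.

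Genes of NF-kB signalling and its cytokines rose in 10 of 29 tested cases (43 listed) and fell in none (median 0.11). CXCL1 was at 16.9, 19.2 and 14.9 with vector and 26.6, 28.9 and 31.7 with CKAP2L (0.74 ± 0.084). CXCL8 (11.1 to 15.7) and CXCL2 (4.24 to 6.18), chemokines of the same family, and the adhesion molecule ICAM1 (15.3 to 21.6) rose too, as did the factors RELB and NFKB1. The rapid feedback genes NFKBIA (70.9 to 75.8) and TNFAIP3 (10.4 to 9.86) did not pass. Without CKAP2L replicate 2 the count was 6.

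Most enzymes of sterol synthesis rose. Of 33 tested genes of cholesterol synthesis and uptake 21 rose and 1 fell (median 0.22), and of the 20 synthesis enzymes 14 rose. MSMO1 (43.4 to 62.1), HMGCS1 (46.1 to 60.3) and SQLE (88.4 to 108.6) were among them, from the first committed steps to squalene epoxidation and the demethylation of sterols. The early enzymes IDI1 (46.3 to 59.4), FDPS (221.7 to 251.4) and FDFT1 (126.5 to 153.5) and the late ones CYP51A1 (57 to 72.7), SC5D (29 to 36.1) and DHCR7 (127.8 to 153.9) rose as well. INSIG1, the sterol-sensing anchor of the SREBP system, was at 47.4, 47.7 and 50.6 with vector and 77.3, 80.9 and 76.5 with CKAP2L (0.68 ± 0.038, adjusted p = 3.77e-06). STARD4, a cytosolic sterol carrier, went from 25 to 37.7 and NPC1, which exports cholesterol from lysosomes, from 37 to 42.4, and both rose. The factors SREBF1 (176.8 to 220.0) and SREBF2 (207.8 to 242.4) rose, and NPC2, which hands cholesterol out of lysosomes, fell from 81.3 to 73.5.

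Fatty acid synthesis rose as well, in 14 of 22 tested genes with none falling (median 0.17). SCD, which introduces the double bond of oleic acid, was at 506.3, 509.0 and 507.4 with vector and 824.3, 811.9 and 804.6 with CKAP2L (0.68 ± 0.026, adjusted p = 5.80e-07). FASN (306.6 to 388.3), ACACA (47.6 to 57.6), ACLY (208.7 to 225.0), ELOVL6 (27.1 to 33.3), FADS1 (32.6 to 41.7) ME1 (43.5 to 54.3) and the desaturase FADS2 (5.53 to 7.38) rose, enzymes of chain building, elongation and desaturation and of the supply of acetyl units and reducing power.

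The ATF4 and amino acid list had the largest share of passing members, 26 of 31 tested (35 listed), all upward (median 0.27). PPP1R15A, which lets translation resume after stress, was at 90.0, 87.1 and 91.3 with vector and 142.5, 141.0 and 141.5 with CKAP2L (0.66 ± 0.030, adjusted p = 8.09e-07). DDIT3 (107.8 to 152.0), which encodes CHOP, TRIB3 (156.2 to 215.0), DDIT4 (591.4 to 756.0), STC2 (109.0 to 147.6) and CHAC1 (116.3 to 143.6) rose. All 9 tested amino acid transporters rose, from SLC1A5 (log2 fold change 0.19) to the cystine carrier SLC7A11 (0.47), with SLC3A2 (453.0 to 569.4) and SLC7A5 (804.8 to 951.4), the chains of the carrier for large neutral amino acids. The partner factors ATF5 (10.2 to 14.6) and CEBPG (66.1 to 83.5) and the nutrient sensor SESN2 (80.5 to 99.4) rose. The asparagine synthetase gene ASNS (588.3 to 681.6) the serine pathway genes PSAT1 (428.0 to 480.1) and PSPH (44.5 to 52.1) and the mitochondrial folate enzyme MTHFD2 (214.0 to 243.0) rose, and PHGDH did not pass (0.06). ATF4 mRNA itself stood at 749.1, 732.3 and 682.1 with vector and 686.6, 687.3 and 717.5 with CKAP2L and did not pass (-0.05 ± 0.038, adjusted p = 0.425); the protein is controlled mainly at translation. Of 20 cytosolic aminoacyl-tRNA synthetases, many of which are ATF4 targets, 10 rose and 3 fell, RARS1, QARS1 and KARS1. The synthetase count was 4 without CKAP2L replicate 2 and 6 without CKAP2L replicate 3. The letters TGATGNAA, an ATF4 element, were in 5 of 26 promoters of the tested list members (19.2%), in 1.63% of those of all tested genes and in 3.67% of all promoters in the table.

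ER chaperones and genes of the unfolded protein response rose in 16 of 35 tested cases and fell in 2 (median 0.12). Leaving out 1 library gave 12 to 14 higher and 1 to 3 lower, and limma without trend gave 10 and 1. HSPA5, which encodes the chaperone BiP, was at 715.3, 709.7 and 711.3 with vector and 897.3, 932.0 and 935.4 with CKAP2L (0.37 ± 0.029, adjusted p = 3.98e-05), without overlap. HYOU1 (251.2 to 310.0), DNAJB9 (8.97 to 11.9), the factor XBP1 (91 to 116.7), its activator ERN1 (12.4 to 15.3) and the degradation gene HERPUD1 (71.2 to 83.2) rose. SDF2L1 (145.4 to 122.0) and PDIA5 (60.5 to 54.7) fell. The promoter of HSPA5 is shown for its ER stress element (ERSE), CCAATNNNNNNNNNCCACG on either strand, which is in capitals and spans bases -66 to -48 before the start.
HSPA5, chr9:125241344-125241593, minus strand: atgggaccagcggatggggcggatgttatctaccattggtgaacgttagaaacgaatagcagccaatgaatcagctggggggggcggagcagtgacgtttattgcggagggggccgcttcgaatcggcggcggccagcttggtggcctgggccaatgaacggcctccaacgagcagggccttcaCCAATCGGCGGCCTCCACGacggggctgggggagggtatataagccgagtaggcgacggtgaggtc

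The ERSE was in 7 of 33 promoters of the list (21.2%), in 5 of 15 of its higher members and in 0.0806% of all promoters in the table. The 3 motifs were searched on both strands.

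Stress and survival genes of other kinds changed in both directions. Of 28 tested p53 targets 10 rose and 4 fell (median 0.05), and leaving out 1 library gave 6 (without CKAP2L replicate 1) to 10 higher and 1 (without CKAP2L replicate 2 or 3) to 5 lower, with 2 lower without vector replicate 2. The death receptor TNFRSF10B (205.5 to 270.8), GADD45A (251.8 to 320.2), the cell cycle inhibitor CDKN1A (441.3 to 519.9) and BBC3 (51.2 to 63.2) rose, and PLK2, PERP, CCNG1 and DDB2 fell. GDF15, at 1303, 1264 and 1336 with vector and 1712, 1797 and 1824 with CKAP2L, belongs to this list and also answers to ATF4. Of 26 NRF2 targets and factors 9 rose and 4 fell. HMOX1 (97.2 to 125.0) and TXNRD1 (320.8 to 362.4) rose, PRDX1 (843.8 to 671.0), TKT, GSR and TALDO1 fell, and NQO1 did not pass (-0.03). Of the BCL2 family 5 of 15 rose, the survival genes BCL2L2, MCL1 and BCL2L1 and the death-promoting BBC3 and PMAIP1, and none fell. Without CKAP2L replicate 2 the count was 3, and without vector replicate 3 2 fell. The metallothionein MT1E was at 172.8, 181.1 and 155.4 with vector and 260.9, 267.9 and 302.6 with CKAP2L (0.70 ± 0.063). Metallothionein genes are near-identical copies, and no label says how reads shared between them were assigned.

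**Figure D3:**
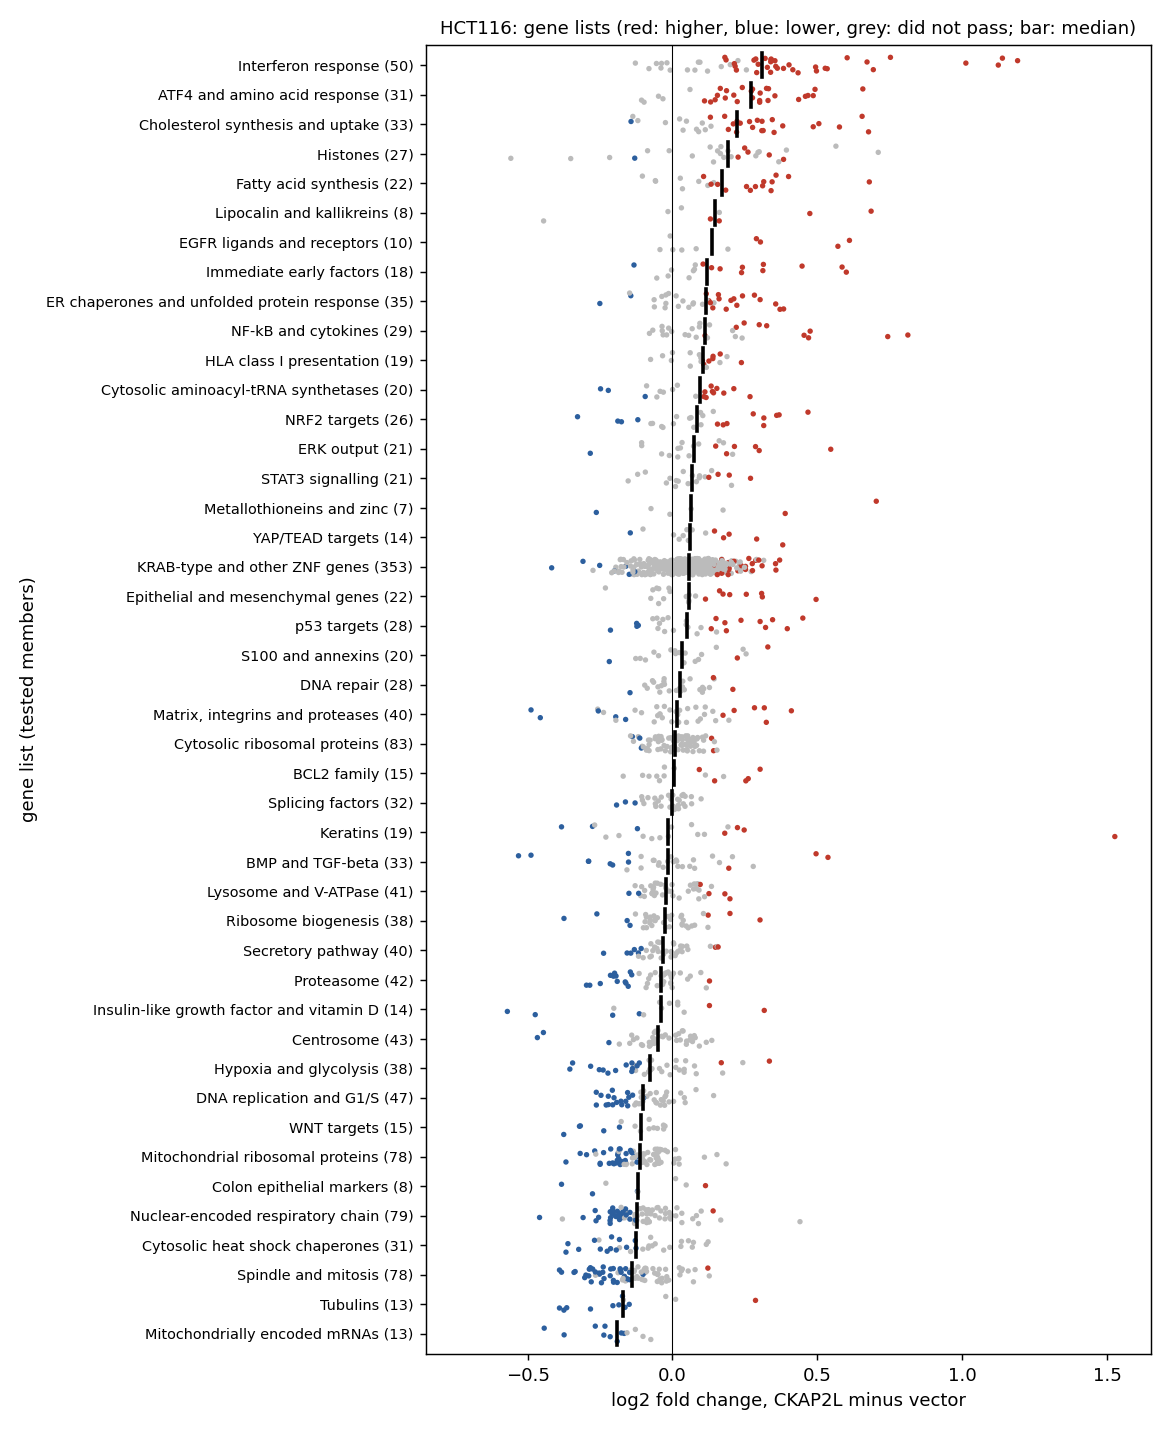
Log2 fold change (CKAP2L minus vector) of the tested members of each gene list with at least 5 tested members, ordered by median; red is higher, blue lower (adjusted p under 0.05), grey did not pass, and black bars are medians. The interferon, ATF4 and cholesterol lists lie furthest to the right (medians 0.31, 0.27 and 0.22) and the mitochondrially encoded mRNAs, tubulins and spindle genes furthest to the left (-0.19, -0.17 and -0.14). The median of the mitochondrially encoded mRNAs is 0 after quantile normalization, which can hide a fall shared by the most abundant mRNAs.

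Of 78 tested genes of the spindle and mitosis, the process CKAP2L belongs to, 34 fell, 1 rose and 43 did not pass, with a median log2 fold change of -0.14. CKAP2L is not a member of the list. In bulk RNA, fewer cells in mitosis and less of these mRNAs per cell cannot be told apart. Among mitotic kinases and the chromosomal passenger complex 10 of 14 fell, among cyclins and anaphase regulators 6 of 14, among kinesins 5 of 13, among microtubule binders 5 of 13 and among kinetochore and chromosome genes 8 of 24. PLK1, the polo-like kinase of mitotic entry, was at 96.8, 96.6 and 97.4 with vector and 78.4, 83.5 and 77.1 with CKAP2L (-0.28 ± 0.035, adjusted p = 5.74e-04). The cytokinesis motor KIF20A was at 29, 26.4 and 28.1 with vector and 20.7, 21.2 and 21.1 with CKAP2L (-0.39 ± 0.044), and the condensin subunit NCAPD2 at 110.7, 107.7 and 114.7 with vector and 89.3, 86.6 and 86.7 with CKAP2L (-0.34 ± 0.033). In all 3 genes every CKAP2L library lay below every vector library. AURKB (129.2 to 113.8), INCENP (56.8 to 44.8), BUB1 (42.6 to 35.5), CDC20 (261.0 to 226.6), CCNB1 (101.5 to 89.7), AURKA (31.9 to 26.9), the spindle assembly protein genes TACC3 (90.4 to 74.5) and DLGAP5 (31 to 25), TOP2A (59.3 to 51.4), which untangles DNA, and the proliferation marker MKI67 (73.1 to 65.9) fell. CDC25B, an activator of CDK1, rose from 114.9 to 125.1, and CKAP2, the relative of CKAP2L, did not pass (0.08). Neither did TPX2 (-0.05), NDC80 (-0.01) and PLK4 (-0.02).

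Of 13 tubulins 9 fell and 1 rose (median -0.17). TUBB4B was at 839.9, 831.8 and 800.0 with vector and 630.0, 641.0 and 647.6 with CKAP2L (-0.36 ± 0.030, adjusted p = 5.31e-05), and TUBA1B (1279 to 1142), TUBB (839.0 to 727.6) and the gamma tubulin of microtubule nucleation TUBG1 (239.5 to 212.5) fell. TUBE1, a centriolar tubulin, rose from 27 to 33.1. DNA replication and G1/S genes fell in 18 of 47 cases and rose in none (median -0.10). All 6 subunits of the MCM helicase fell, from MCM3 (-0.14) to MCM6 (-0.23), with PCNA (351.7 to 315.9), POLD1 (60.7 to 50.4) and RRM2 (173.1 to 161.5). E2F1 (-0.10), CCNE1 (-0.11) and TYMS (-0.03) did not pass. In the deposited TPM 11 replication genes were lower and 2 higher. Of 28 DNA repair genes 2 were higher and 1 lower, and of 43 centrosome genes 3 were lower, shares at or below those of all genes.

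Genes of the list of cytosolic chaperones fell in 13 of 31 cases and rose in none (median -0.13), while of the ER chaperones alone 9 of 21 rose and 2 fell. HSP90AA1 was at 843.3, 847.0 and 886.7 with vector and 665.7, 669.3 and 661.7 with CKAP2L (-0.37 ± 0.030, adjusted p = 5.27e-05), and HSP90AB1 (1823 to 1534) and HSPA8 (313.0 to 250.1) fell. HSPD1 (517.2 to 455.6), whose protein is mitochondrial and not cytosolic, fell too. Of the chaperonin that folds actin and tubulin, TCP1, CCT2, CCT3, CCT4 and CCT8 fell. The heat-inducible HSPA1B (-0.18) and HSPB1 (0.06) did not pass. HSPA1B has a near-identical copy, HSPA1A, with which it may share reads. Proteasome genes fell in 13 of 42 cases and rose in 1 (median -0.04, or 0.02 in the deposited TPM), and PSMD3 (243.9 to 198.4) fell.

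Glycolytic genes fell in 11 of 22 cases and rose in none (median -0.10). LDHA was at 657.8, 669.4 and 620.0 with vector and 505.2, 514.1 and 513.0 with CKAP2L (-0.34 ± 0.033, adjusted p = 1.34e-04) and ALDOA at 1151, 1135 and 1135 with vector and 925.7, 939.6 and 947.8 with CKAP2L (-0.28 ± 0.028). PGAM1 (375.4 to 318.0), PKM (1268 to 1150), GAPDH (4415 to 4014) and the glucose carrier SLC2A1 (280.1 to 250.6) fell too. Other hypoxia genes did not move as a group, with 2 of 16 higher (VEGFA, 84 to 106.2, and HIF1A) and 2 lower (NDRG1, 257.5 to 201.3, and EPAS1).

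Genes of mitochondrial proteins, encoded in the mitochondrion or in the nucleus, had more lower than higher members in all 3 lists. But these counts depend on single libraries and on the scaling. Of the 13 mitochondrially encoded mRNAs 9 fell (median -0.19), with MT-ND6 at 5292, 5271 and 4901 with vector and 3656, 3989 and 3734 with CKAP2L (-0.44 ± 0.046). In the deposited TPM 10 fell (median -0.13). After quantile normalization 2 fell and the median was 0. That scaling gives equal ranks equal values in every library, so it can hide a fall shared by the most abundant mRNAs, such as these. Leaving out 1 library gave 3 (without CKAP2L replicate 2) to 12 (without vector replicate 3). Of 79 nuclear genes of the respiratory chain 29 fell and 1 rose (median -0.12), among them SDHA (172.4 to 139.0), CYC1 (631.1 to 550.3) and COX6B1 (214.7 to 177.6). ATP5MC1 was at 236.6, 233.4 and 196.6 with vector and 160.2, 156.0 and 166.5 with CKAP2L, with vector replicate 3 nearest to the CKAP2L libraries. By complex, 9 of 38 genes of complex I fell, 2 of 4 of complex II, 5 of 9 of complex III, 5 of 10 of complex IV and 8 of 18 of complex V, and NDUFA6 of complex I rose. Of 78 mitochondrial ribosomal proteins 29 fell and none rose (median -0.11), or 14 in the deposited TPM.

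The list medians by library show a split within the vector group. Vector replicate 3 deviated by -0.04 for the nuclear respiratory chain, inside the CKAP2L range of -0.09 to -0.03, while the other vector libraries deviated by 0.10 and 0.11. Without vector replicate 3 the count of lower respiratory genes was 53, and without CKAP2L replicates 1, 2 or 3 or vector replicates 1 or 2 it was 14, 15, 22, 16 and 17. For the mitochondrial ribosomal proteins these counts were 41 and 15, 14, 20, 14 and 16. The same vector library was the lowest for cytosolic ribosomal proteins, of which 2 of 83 were higher and 3 lower (median 0.01), and without it 21 were lower. In the interferon, ATF4, cholesterol, fatty acid, spindle, replication and tubulin lists the medians of both groups did not overlap. Nor did they in the lists of cytosolic chaperones, mitochondrially encoded mRNAs and mitochondrial ribosomal proteins. For the mitochondrial ribosomal proteins vector replicate 3 was at 0.008, nearest to the CKAP2L libraries.

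**Figure D4:**
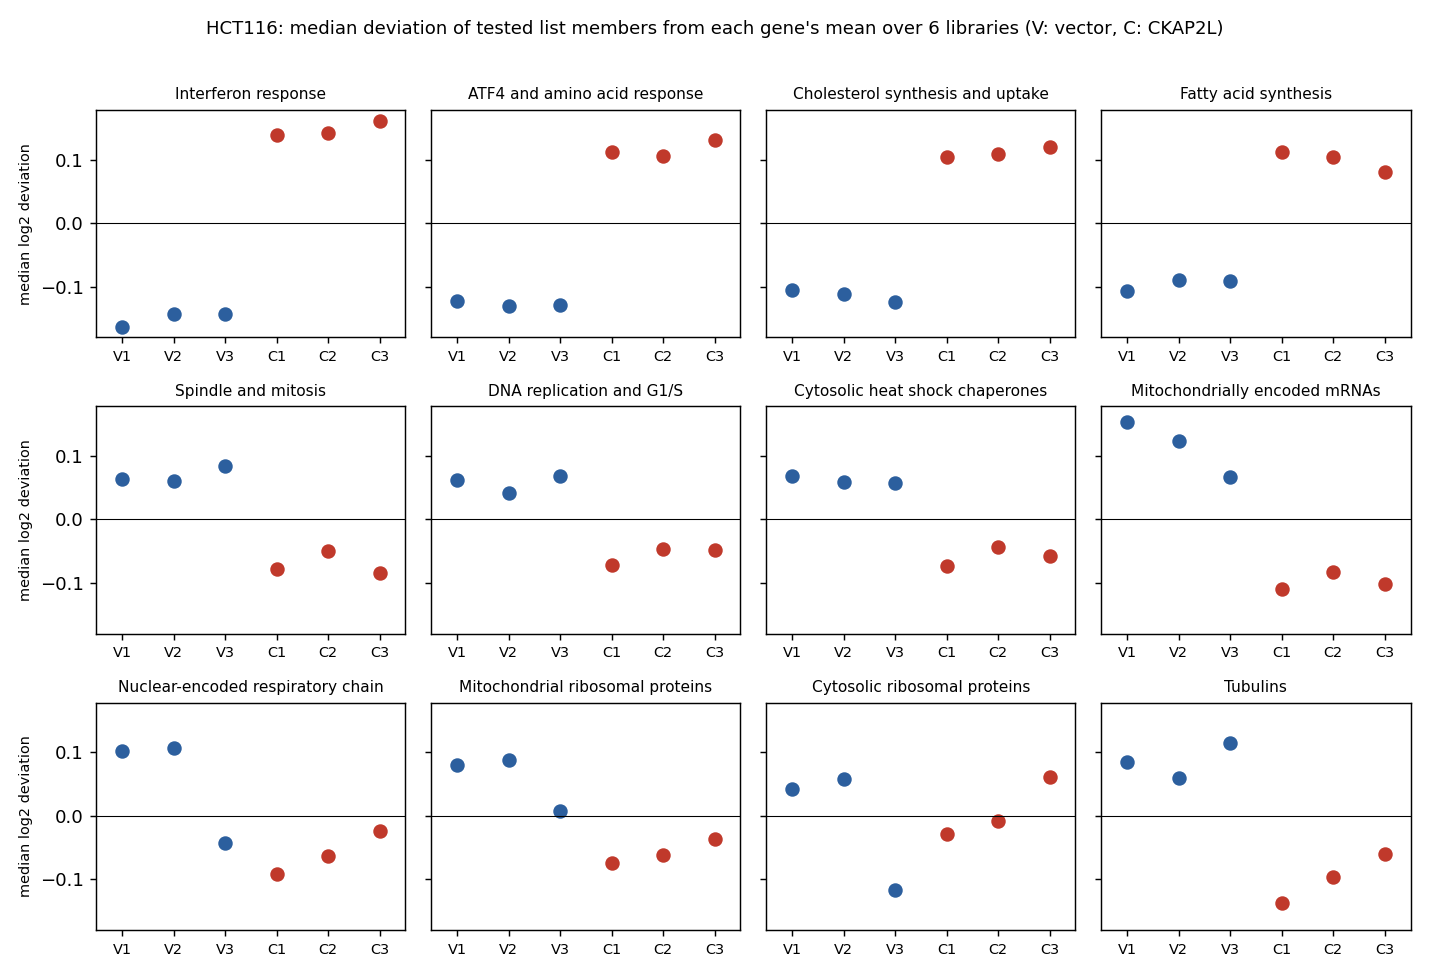
Median, over the tested members of 12 lists, of the log2 deviation of each library from the gene's mean over the 6 libraries (V1 to V3 vector in blue, C1 to C3 CKAP2L in red). The interferon medians lie between 0.14 and 0.16 in the CKAP2L and between -0.16 and -0.14 in the vector libraries, whereas V3 of the nuclear-encoded respiratory chain (-0.04) lies within the CKAP2L range.

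Some targets of WNT and BMP signalling fell. Of 15 tested WNT targets (20 listed) 5 fell and none rose (median -0.11), and leaving out 1 library left 2 (without CKAP2L replicate 1) to 5. DKK1, a secreted WNT inhibitor, was at 522.9, 516.9 and 520.5 with vector and 395.4, 414.7 and 392.7 with CKAP2L (-0.38 ± 0.030, adjusted p = 4.64e-05), and RNF43 (10.2 to 7.99), LGR4 (6.05 to 4.65), AXIN2 (5.53 to 4.54) and NKD2 (42.7 to 37.5) fell. Of 33 tested genes of BMP and TGF-beta signalling 3 rose and 8 fell, with a median of -0.02 that turned to 0.04 in the deposited TPM, where 6 rose and 6 fell. Without CKAP2L replicate 1 the count of lower genes was 4, and without CKAP2L replicate 2 or vector replicate 1 it was 5. The ligands BMP4 (204.0 to 166.7) and BMP6 (7.79 to 5.07) fell, 0 of 14 receptors and SMAD factors passed, and 6 of 10 targets and inhibitors fell. These were ID1 (682.3 to 614.2), ID2 (84.2 to 75.7), ID3 (173.5 to 150.2), SMAD6 (7.30 to 6.16), BAMBI (14.4 to 11.6) and NOG (3.49 to 2.21).

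Structural and secreted genes of the epithelium changed in both directions. Of 19 tested keratins 4 rose, KRT17, KRT15, KRT23 and KRT80, and 3 fell, KRT8, KRT18 and KRT19, which form the filaments of simple epithelia. KRT8 was at 1763, 1767 and 1848 with vector and 1374, 1359 and 1391 with CKAP2L (-0.38 ± 0.032, adjusted p = 5.32e-05). KRT18 was at 2240, 2185 and 2230 with vector and 1810, 1825 and 1862 with CKAP2L (-0.28 ± 0.030). LCN2 (189.5, 180.8 and 180.9 with vector and 294.0, 295.1 and 299.3 with CKAP2L) and the kallikrein KLK6 (385.6 to 536.1) rose among 4 of 8 genes of their list. Of 22 epithelial and mesenchymal genes 8 rose and none fell (5 without CKAP2L replicate 2). Those named here are ESRP1, OCLN, GRHL2, EPCAM and CLDN7 of the epithelial side and ITGA5 and SPARC of the mesenchymal side. CDH1 did not pass (0.05). The urokinase PLAU (126.7 to 168.8), its receptor PLAUR (50.8 to 63.4) and the integrin chain ITGA3 (710.6 to 889.9) rose, and ITGB4 (295.4 to 257.7) fell. YAP and TEAD targets rose in 5 of 14 cases, AXL (47.7 to 62.4) among them, with CCN2 at 0.04 (adjusted p = 0.593).

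Most of the other lists moved in both directions, and not all stood near the shares of all genes. Higher were 18.5% of histone genes, and lower were 28.6% of insulin-like growth factor and vitamin D genes and 1.98% of zinc finger genes. Of 41 lysosomal genes 4 rose and 2 fell, of 40 genes of the secretory pathway 2 rose and 6 fell, of 38 of ribosome biogenesis 3 rose and 4 fell, and of 32 splicing factors 0 rose and 3 fell. These counts moved by more than 1.5 times when single libraries were left out, and the medians of all 4 lists lay above 0 in the deposited TPM and below 0 here. Of 40 matrix, integrin and protease genes 6 rose and 5 fell, of 20 S100 and annexin genes 2 rose and 1 fell, and of 14 genes of insulin-like growth factor and vitamin D signalling 2 rose and 4 fell. The last list had 1 higher and 2 lower without CKAP2L replicate 1 or 3, with 1 higher also without CKAP2L replicate 2 or vector replicate 1 or 2. For the S100 and annexin list 1 was higher without CKAP2L replicate 2 or 3, 4 were higher without vector replicate 2 and 4 lower without vector replicate 3. Zinc finger genes rose in 27 of 353 cases and fell in 7 (median 0.06), with 57 and 2 in the deposited TPM. Leaving out any library but vector replicate 3 left 13 or 14 higher and 1 to 5 lower. Histone genes rose in 5 of 27 cases and fell in 1 (median 0.19), with 3 higher without vector replicate 1 or 2 and 0 lower without CKAP2L replicate 1 or 2 or vector replicate 1. Many histone mRNAs lack a poly(A) tail and have near-identical copies, so their levels here are uncertain.

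Lower genes differed in level, base composition and length from the rest. Of genes at 1 to 2 TPM 1.08% were lower, at 20 to 100 TPM 12.6%, at 100 to 1000 TPM 23.1%, and above 1000 TPM 30.2%. The last share is 26 of 86 genes, mitochondrially encoded mRNAs among them. The corresponding shares of higher genes were 2.15%, 10.6%, 16.4% and 9.3%, so they also rose with level up to 1000 TPM. The spread between replicates shrank with level, from a median residual SD of 0.136 at 1 to 2 TPM to 0.0489 at 20 to 100 TPM and 0.0372 at 100 to 1000 TPM. Above 1000 TPM it was 0.0484. By GC content of the transcripts, lower genes made up 3.3% of the lowest quintile and 15.2% of the highest, and by transcript length 15.0% of the shortest quintile and 3.89% of the longest. Median GC content was 54.9% for lower, 50.1% for higher and 49.9% for all tested genes, and median length was 2510, 3502 and 3329 bases. Across genes Spearman's rho with the log2 fold change was -0.137 for GC content and 0.116 for length. After a correction for both, 1305 genes were higher and 1245 lower, and 2089 of 2315 calls with both values still passed. In that correction 35 interferon, 27 ATF4 and 21 cholesterol genes were higher, and 41 spindle, 20 replication and 31 respiratory chain genes were lower. By chromosome the median log2 fold change lay between -0.02 and 0.02 for all but the mitochondrial genome (-0.19).

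In RKO the CKAP2L level went the other way, so a gene that follows CKAP2L in both lines would be higher here and lower there. Of the RKO knockdown libraries 2 carry genotype labels that number the gene otherwise (shCKAP3L and shCKAP4L), and they were grouped by title. The lines differ in the manipulation as well as in identity, and these cannot be told apart. In a fit of all 12 libraries over 11024 genes, CKAP2L fell by 1.47 on the log2 scale with shCKAP2L (adjusted p = 6.62e-12). Of the 983 genes that were higher in HCT116 and tested in both lines, 35.7% were lower with shCKAP2L and 35.4% higher, beside 32.3% and 31.5% of all genes. Of the 1063 lower in HCT116, 27.2% were higher with shCKAP2L and 41.8% lower. AREG fell in RKO (log2 fold change -0.58, adjusted p = 5.04e-04), and so did EGFR (-0.21, adjusted p = 2.91e-04). STAT3, which did not pass in HCT116, rose with shCKAP2L (0.46, adjusted p = 2.53e-08).

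The lists differed in this respect. Cholesterol genes, of which 21 of 33 rose with CKAP2L, fell in 23 of 31 cases with shCKAP2L (median -0.39) and rose in 4, and ATF4 genes fell in 22 of 30 and rose in 1 (median -0.20). Of the spindle list, of which 34 of 78 fell in HCT116, 64 fell with shCKAP2L (median -0.28), of the tubulins 9 of 13 and of the replication list 28 of 47. Whether they are the same genes in both lines was not counted. Interferon genes rose in 19 and fell in 11 of 42 cases in RKO. The difference between the lines, (CKAP2L minus vector) minus (NC minus shCKAP2L), passed for 3156 genes upward (28.6%) and 3151 downward (28.6%). It passed downward for 67 of 78 spindle genes and upward for 5, and for 25 interferon genes upward and 5 downward. For the ATF4 list it passed for 9 upward and 10 downward of 30, with a median difference of -0.02. For the cholesterol list it passed for 6 upward and 17 downward of 31, with a median difference of -0.17.

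**Figure D5:**
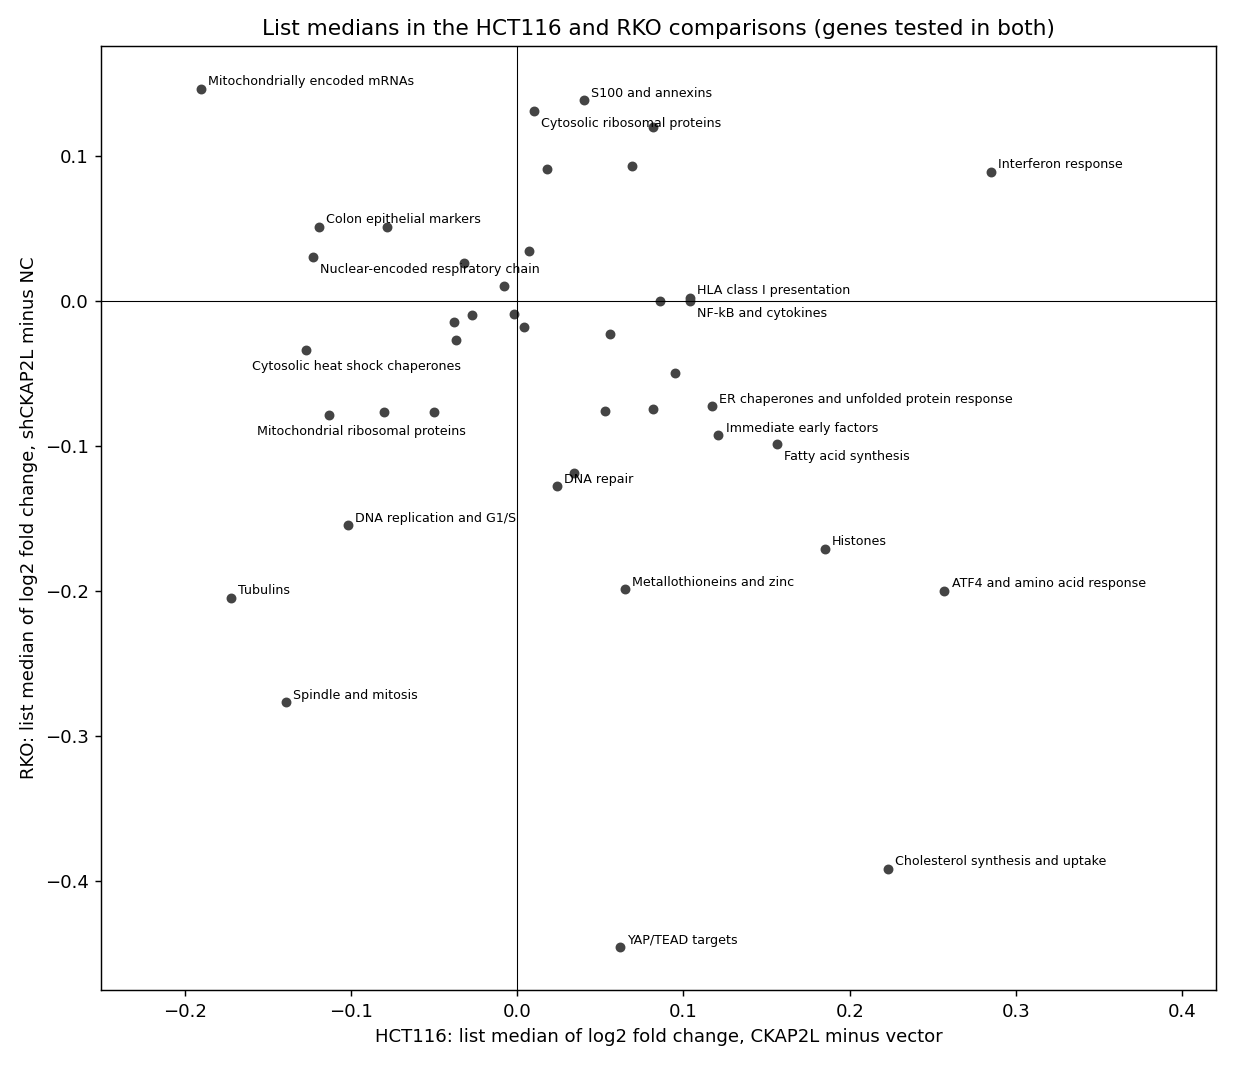
Median log2 fold change of each list with at least 5 genes tested in both lines, CKAP2L minus vector in HCT116 (horizontal) against shCKAP2L minus NC in RKO (vertical). The cholesterol and ATF4 lists lie in the lower right quadrant (higher in HCT116, lower in RKO), and the spindle, tubulin and replication lists in the lower left (lower in both).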

How the data were processed

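Messenger RNA from 12 libraries of 2 colorectal cancer lines was measured, 3 libraries a group, and the 6 HCT116 libraries are described. The authors deposited TPM values per gene, and tools named per the submitters' processing notes are FastQC 0.11.2, Trimmomatic 0.36, HISAT2 2.0 and bedtools 2.26.0 with build GRCh38. For the counting tool, its annotation and its use of strand the sources used here give nothing. TPM keeps no depth, so no counting interval was computed and precision rests on the spread of 3 libraries a group.

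Gene identifiers were matched to symbols in a gene name table (19761 of 20263) and in GENCODE release 29 (463), and 39 had no symbol. TPM was rescaled by the median of ratios within each line. Genes with a mean deposited TPM of at least 1 were tested on log2(TPM + 1) with limma 3.58.1 in R 4.3.3 (moderated test with a trended prior, two-sided), with Benjamini-Hochberg adjustment over all tested genes and a threshold of 0.05. The pseudocount understates the change of low genes. The fit was tested on simulated data with known changes. Tables and figures were made in Python 3.11.15. Columns that belong to no sample numbered 0.

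Named are CKAP2L, AREG, STAT3 and EGFR, and per direction the 12 passing genes with the largest change at a mean of at least 5 TPM without overlap and the 6 most abundant. Also named are up to 5 members a list by adjusted p and members against their list's direction. Other genes named were chosen after their values were seen. Some genes this rule selects are counted in their lists and not reported here by name. The 48 lists, the tests and the choice of this comparison were made with earlier results of these data known, so no list is independent evidence of its direction. Lists are described by counts and medians without a test. One listed symbol, a mucin, was not analysed here. Promoters are RefSeq sequences of GRCh38.p14. The difference between lines was fitted in 1 model of all 12 libraries, each line rescaled within itself. Alternatives tried were 3 other scalings, 2 pseudocounts, 2 filters on low values, leaving out each library, a replicate block, other variance priors, the spread over 12 libraries and, chosen after seeing the data, a correction for GC content and length.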

Additional observations from a re-analysis of the deposited data

Results flagged for a closer look

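The flagged results are genes whose change with the CKAP2L construct in HCT116 differed from their change with the CKAP2L level in RKO, by a test of the difference itself in a fit of all 12 libraries (limma, adjusted over 11024 genes). The difference is (CKAP2L minus vector) minus (NC minus shCKAP2L) on the log2 scale, n = 3 libraries a group, and line and manipulation cannot be told apart in it. CKAP2L differed by 2.39 ± 0.074, adjusted p = 7.50e-12, since its increase in HCT116 (3.87) was larger than its decrease in RKO (-1.47). STAT3 differed by 0.48 ± 0.049, adjusted p = 1.18e-06, and EGFR by -0.25 ± 0.055, adjusted p = 0.00134. AREG did not pass (-0.27 ± 0.17, adjusted p = 0.168).

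Of the listed genes with the smallest adjusted p, 5 differed upward. HMOX1, which degrades haem, differed by 1.79 ± 0.042, adjusted p = 6.36e-13, and was higher with CKAP2L in HCT116 (0.36) and with shCKAP2L in RKO (1.43). PLAU differed by 1.47 ± 0.034, adjusted p = 6.36e-13 and the lysosomal PSAP by 1.05 ± 0.035, adjusted p = 1.54e-11. The survival gene BCL2L1 differed by 1.04 ± 0.037, adjusted p = 2.79e-11 and the integrin chain ITGA2 by 1.12 ± 0.043, adjusted p = 6.52e-11. With CKAP2L in HCT116 the changes were 0.41 for PLAU, 0.10 for PSAP, 0.09 for BCL2L1 and -0.03 for ITGA2, which did not pass. With shCKAP2L in RKO they were larger, at 1.06, 0.96, 0.95 and 1.15.

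The 5 downward were PLK1 (-0.97 ± 0.040, adjusted p = 1.32e-10), the pentose phosphate enzyme TALDO1 (-0.87 ± 0.037, adjusted p = 2.20e-10), CCN2 (-1.66 ± 0.074, adjusted p = 3.10e-10), KRT18 (-0.91 ± 0.042, adjusted p = 4.47e-10) and TUBB4B (-0.78 ± 0.037, adjusted p = 4.47e-10). PLK1, TALDO1, KRT18 and TUBB4B were lower with CKAP2L in HCT116 and lower with shCKAP2L in RKO. CCN2 fell by 1.70 in RKO and was at 0.04 in HCT116.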

How the results depend on the processing

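The counts moved most with the scaling and with the number of libraries. In the deposited TPM 2082 genes were higher and 543 lower, since the median of all genes lies 0.054 above 0 there. Leaving out 1 library gave 645 to 1148 higher and 640 to 1338 lower genes. With limma without trend 739 genes were lower, and the cause was not tested. AREG had a log2 fold change of 0.304 with an adjusted p of 0.0633 when the spread was taken over all 12 libraries, and passed in the other alternatives run. EGFR in HCT116 turned to 0.014 in the deposited TPM (adjusted p = 0.876). MT-ND4L turned to 0.017 and MT-ND1 to 0.044 after quantile normalization, and none of these values passed the threshold. Quantile normalization can hide a fall shared by the most abundant mRNAs, so it does not decide on these 2 genes. MT1X in HCT116 ranged from -0.006 to 0.102 and SYP in HCT116 from -0.227 to 0.015 with 1 library left out, without vector replicate 3 and vector replicate 2 at the changed sign, and neither passed.

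Of the 2316 genes that passed, 1667 also passed in the deposited TPM, 1469 without the trended prior and 1239 to 1969 with 1 library left out, in each case with 0 changes of sign. After correction for GC content and length 2089 passed. Libraries with the same replicate number did not deviate together (r of -0.0726, -0.0352 and -0.0927 across genes, and 0 libraries correlated best with their own number). Whether libraries of the same number were grown or processed together cannot be read from these values. With the replicate block 854 genes were higher and 882 lower. The number of genes whose effect differs between HCT116 and RKO was 6307, 5796 to 6363 with 1 library left out and 6006 with the replicate block. The values under an alternative were pooled over single listed genes and counts of list members, and 5178 were classed as the same. Another 320 had moved, a class used for counts of list members that changed by more than a set ratio. A further 295 values lost and 40 gained significance, and 4 reversed. Depth is unknown, and differences of low genes below the replicate spread were not detectable.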
